A study of Homo sapiens with 31 samples.

Results

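The transcripts described here are the longest in the series: 213 of 77343 distinct transcripts. They were selected on measured values, as those with a deposited length of 3000 or more and at least 100 counts in each of the 2 RNA-seq libraries of naive cells. Transcripts with equal counts in all 31 libraries were collapsed to the first. Before collapsing, 239 transcripts met both limits, of 356 that met the length limit at any count. The 213 transcripts fell into 105 loci, here meaning sets of neighbouring transcripts whose counts rise and fall together (correlation of 0.9 or more within 10 rows). Of these loci, 56 held 1 transcript and the largest held 21. The authors' lengths carry no unit, so the reading of these transcripts as giant coding regions could not be checked against an annotation.

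The eIF4A proteins are DEAD-box RNA helicases of the eIF4F cap-binding complex, which unwinds the 5′ end of an mRNA so that a ribosomal subunit can load. EIF4A1 and EIF4A2 encode closely related forms. LARP1 is an RNA-binding protein that holds mRNAs with a terminal oligopyrimidine tract in a repressed state when the mTORC1 kinase complex is off, and PP242 inhibits the mTOR kinase. An mRNA with a long coding region carries more ribosomes at once at a given initiation rate, and a ribosome takes longer to cross it.

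All libraries came from HEK293 T-REx, a human embryonic kidney line with an inducible transgene system. Ribosome profiling, which sequences the RNA fragments that ribosomes shield from nuclease (footprints), was done in naive, EIF4A1 knockout (KO) and EIF4A2 KO cells. Each genotype had 2 DMSO libraries and 1 library for each of 1 µM and 10 µM PP242, given for 30 min. RNA-seq covered naive cells (2 libraries) and EIF4A1 KO cells (2 libraries), with no drug named in their labels. Cells expressing eIF4A1 or eIF4A2 with a streptavidin-binding peptide (SBP) gave 2 input and 2 streptavidin pulldown libraries per protein. SBP-eIF4A1 cells treated for 72 h with a control siRNA (siControl) gave 2 inputs and 2 pulldowns, and those treated with LARP1 siRNA (siLARP1) gave 2 inputs and 1 pulldown. The labels do not say whether a knockout line is 1 clone, whether replicates are separate cultures, or whether the SBP cells keep their own eIF4A. The p-values therefore measure the spread between these libraries, which may be technical. The test pools part of this spread over transcripts, so an SE need not show how far a transcript's own replicates lay apart.

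Counts summed over distinct transcripts ranged from 7467192 to 19075559 in ribosome profiling, from 58161551 to 63648586 in RNA-seq and from 35293504 to 52205005 in inputs and pulldowns. These sums count a read once for each transcript it was assigned to, so they exceed the number of reads, and transcripts of 1 locus are not independent. The median count of the 213 transcripts was 75 to 257 in a profiling library, 1263 to 1469 in an RNA-seq library and 311 to 2514 in an input or pulldown. The median was under 100 in both EIF4A1 KO DMSO libraries (96 and 75) and in the naive library at 10 µM PP242 (88). No table at hand pairs the transcript IDs with genes, so members are named by ID and the levels of EIF4A1, EIF4A2 and LARP1 were not used to check the labels.

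The 213 transcripts had a median length of 3960, against 217 over all distinct transcripts. Of these, 101 were 4000 or longer, 45 were 5000 or longer and 7 were 10000 or longer. The closest inside the length limit were ENST00000366704.2 at 3001, ENST00000380250.7 at 3003 and ENST00000503238.5 at 3004, and the closest outside were ENST00000423902.7 at 2988, ENST00000619423.4 at 2979 and ENST00000360013.7 at 2977. At the count limit, the lower of the 2 naive RNA counts was 115, 122 and 124 for the 3 members just inside and 92, 87 and 82 for the 3 transcripts just outside. Over the members this lower count had a median of 1341, 17 members were under 200, and the highest count in either library was 15072.

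The longest transcript, ENST00000589042.5 at 35982, stood apart between assays. It had 747 and 725 counts in naive RNA-seq and 720 and 683 in EIF4A1 KO RNA-seq. Its count was between 1 and 8 in each of the 8 input libraries of the pulldown experiments, which are as deep as 52205005 counts. Footprints numbered 0 in each profiling library except EIF4A2 KO DMSO replicate 2, which had 1. Its 5 sister transcripts had the same pattern. ENST00000368799.1 (length 4052) was like them in having 448 and 495 counts in naive RNA-seq, 384 and 399 in EIF4A1 KO RNA-seq and at most 5 in any input. It had footprints in 3 of the 12 profiling libraries: 16 in EIF4A1 KO DMSO replicate 2, 6 in EIF4A2 KO DMSO replicate 1 and 1 in EIF4A2 KO cells at 1 µM PP242. These 7 transcripts, from 2 loci, thus had at least 100 counts in each naive RNA-seq library and under 20 in each input, and what sets the assays apart for them was not tested. They stayed in the 213, and leaving them out changed 4 of the 14 medians given below, most of all that of the pulldown after siControl (0.73 in place of 0.79).

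**Figure D1:**
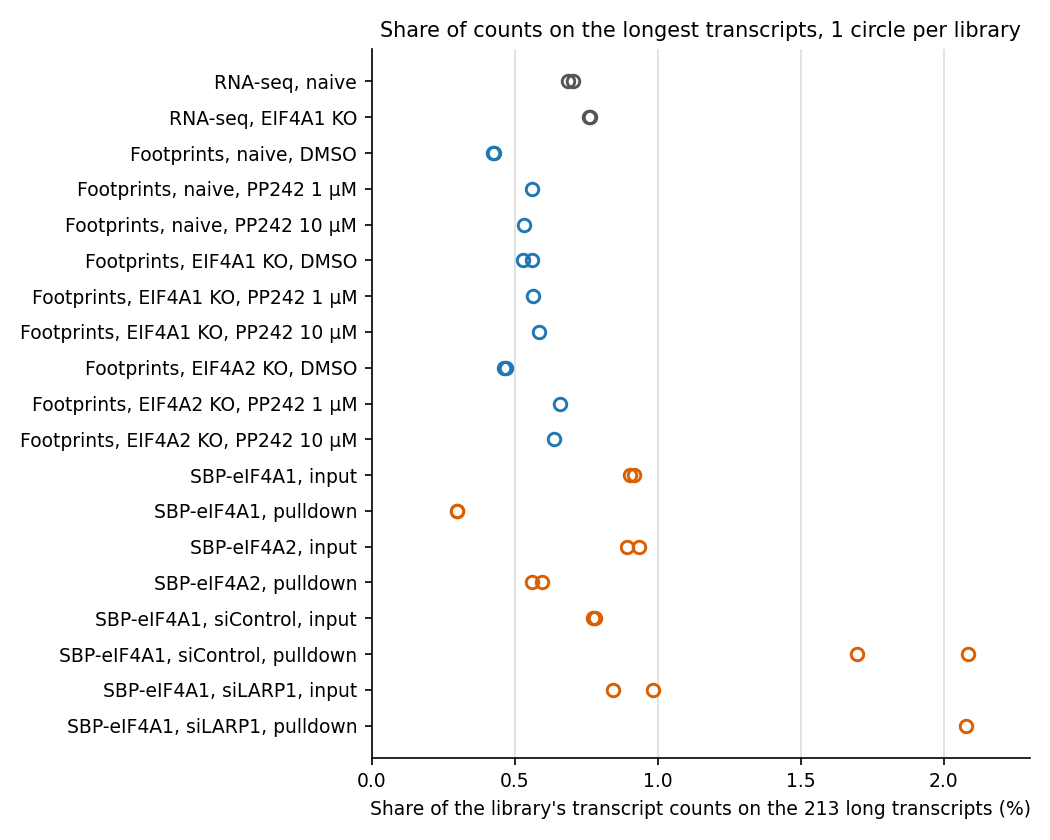
Share of each library's counts that fell on the 213 longest transcripts (x axis, percent of the counts summed over distinct transcripts), with 1 circle per library and 1 row per group. SBP-eIF4A1 pulldowns without siRNA lie at 0.299% and 0.297%, far left of their inputs at 0.916% and 0.901%, while the siControl pulldowns lie at 1.69% and 2.08%, right of all inputs.

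As a whole, the 213 transcripts took 0.704% and 0.686% of the counts in naive RNA-seq but 0.427% and 0.424% of the footprints in naive DMSO cells. The plot of the share by library shows where this share moved. In EIF4A1 KO cells on DMSO the footprint share was 0.562% and 0.528%, and in EIF4A2 KO cells it was 0.469% and 0.464%. With PP242 the share was 0.561% at 1 µM and 0.531% at 10 µM in naive cells, above both DMSO libraries. EIF4A2 KO cells reached 0.658% and 0.637% at these doses. In EIF4A1 KO cells the PP242 values of 0.564% and 0.586% lay just above the higher DMSO library. The pulldowns moved in opposite directions: the share was 0.328 times that of the input for SBP-eIF4A1 (0.343 times with 1 transcript per locus), 0.631 times for SBP-eIF4A2 and 2.43 times for SBP-eIF4A1 after siControl. All of these are shares of a library, so a change in the total RNA of the cells cannot be told apart from a change in these transcripts.

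In naive cells the longest transcripts carried few footprints for their RNA. Summed over the 2 libraries of each assay, the members had a median of 12.8 footprints per 100 RNA counts, with quartiles of 7.03 and 20.6, against 24.9 over the 44178 transcripts that met the same RNA count limit. The median fell step by step with length, from 29.1 in transcripts below 100 to 27.2, 23.2, 19.1 and 16.6 in the next classes (100 to 300, 300 to 1000, 1000 to 2000, 2000 to 3000) and 12.8 at 3000 or more. The naive RNA counts also chose the members, so these are descriptions with no test. In terms of library shares, the median member's footprint share was 0.444 times its RNA share. The same length is deposited for both assays, so dividing each count by it would not change this ratio. It could not be settled whether both assays were counted over that length. Whether length enters the assays in other ways was not tested.

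The members differed widely among themselves in this ratio. Of the 105 loci, 14 had under 5 footprints per 100 RNA counts, 53 had 5 to 20, and 38 had 20 or more, 8 of them 50 or more. The transcripts named in this paragraph and the next were chosen as extremes after their values were seen. ENST00000389561.6 (length 3114) was highest, with 433 and 465 footprints in the 2 DMSO libraries on 336 and 303 RNA counts, or 140.5 per 100. ENST00000262304.8 (length 4294) was among the lowest, with 61 and 50 footprints on 4168 and 4161 RNA counts, or 1.33 per 100. The longest transcript had 0 footprints in both libraries, which allows up to 0.204 per 100 (3 counts over both libraries, counting error only). Over the 105 loci, the ratio had a Spearman correlation of -0.18 with length and 0.0038 with RNA counts per length, given as a description.

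Per unit of length, RNA spanned a wide range across the loci. ENST00000366955.8 (length 3105) had 7729 RNA counts per 1000 of length and ENST00000314191.6 (length 4119) had 7096. At the other end stood ENST00000397910.8 (length 14498) with 25.7 and the longest transcript with 40.9. The median of the 213 members was 752, against 3438 over all transcripts with the same RNA count limit. ENST00000314191.6 also had the most footprints of any member, 3259 per 1000 of length against a member median of 98.6. It alone held 13425 footprints in the 2 naive DMSO libraries.

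**Figure D2:**
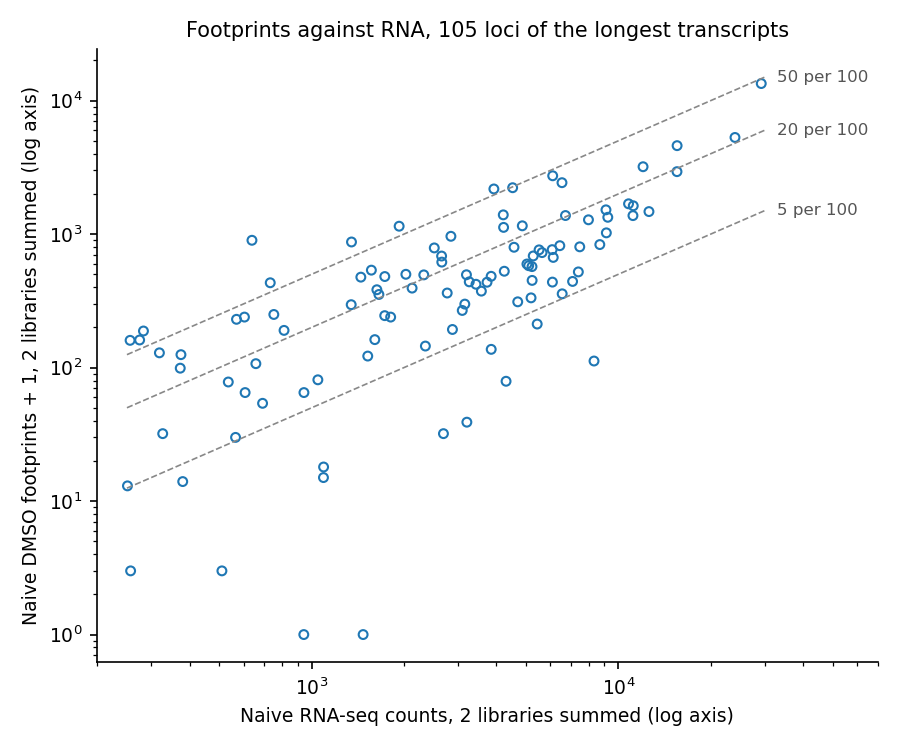
Footprints in naive DMSO cells plus 1 (y axis, log scale) against naive RNA-seq counts (x axis, log scale), each summed over 2 libraries, with 1 circle per locus of the longest transcripts (105 loci, leading transcript). Dashed lines mark 5, 20 and 50 footprints per 100 RNA counts; counted before 1 is added, 14 loci are below the lowest line and 8 on or above the highest.

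Loss of EIF4A1 was first compared at the RNA level. The naive RNA libraries chose the members, so the counts here are a description. By edgeR's quasi-likelihood test with Benjamini-Hochberg adjustment (called at an adjusted p under 0.05 over all transcripts, the rule used throughout), 76 of 213 members were called higher in EIF4A1 KO and 64 lower. Over all 64352 transcripts tested, 20.7% were called higher and 20.6% lower. Shorter transcripts with the same RNA count limit as the members had 25.9% higher and 23.7% lower. At a length of 2000 to 3000 these shares were 43.4% and 23.7%. The median log2 fold change of the members was 0.013, with quartiles of -0.26 and 0.21, against -0.0024 over all transcripts. Counting only the leading transcript of each locus gave 46 of 105 higher and 23 lower. Without naive replicate 2, the counts were 64 higher and 65 lower.

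The largest RNA changes ran in both directions. ENST00000313654.13 (length 3324) had 26.3 and 24.0 CPM (counts scaled to a common library size, with TMM factors) in naive cells and 80.1 and 85.8 in EIF4A1 KO. Its log2 fold change was 1.72 ± 0.047 (SE; edgeR adjusted p = 5.4e-26). ENST00000585328.5 (length 4448) had 3.07 and 3.04 CPM in naive and 10.8 and 10.2 in EIF4A1 KO cells, a log2 change of 1.78 ± 0.095. Both knockout libraries lay far above both naive libraries for these transcripts. ENST00000366574.7 (length 4958) had 31.5 and 31.1 CPM in naive and 4.06 and 3.65 in EIF4A1 KO cells, and its log2 change was -3.02 ± 0.071 (edgeR adjusted p = 1.0e-27). ENST00000271588.9 (length 5626) had 5.05 and 4.81 CPM against 0.986 and 0.654, a log2 change of -2.58 ± 0.16. The libraries of the 2 genotypes did not overlap in any of these cases, which was a condition for naming a member here.

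On DMSO, a share of the longest transcripts had more footprints in EIF4A1 KO than in naive cells. Of the 213 members, 194 passed the filter on low counts in this fit of 6 libraries. Of these, 72 were called higher and 19 lower, against 11.9% higher and 13.2% lower of all 53732 transcripts tested. By locus the counts were 46 of 98 higher and 8 lower. The median log2 change was 0.22 over the members and -0.014 over all transcripts. Of shorter transcripts with the same RNA count limit, 13.6% were called higher and 14.8% lower. At a length of 2000 to 3000 these shares were 49.1% and 11.4%. Relative to the naive mean, the median over the 98 loci was 0.31 in knockout replicate 1 and 0.23 in replicate 2, with 79 and 73 loci above 0.

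ENST00000399516.7 (length 3268) had 7.36 and 7.48 CPM of footprints in naive, 19.3 and 17.1 in EIF4A1 KO and 8.68 and 9.21 in EIF4A2 KO cells. Its log2 change in EIF4A1 KO was 1.30 ± 0.14 (SE; edgeR adjusted p = 3.1e-12), while its RNA change was 1.70. ENST00000621744.4 (length 3834), with few footprints, had 0.742 and 1.02 CPM in naive and 2.53 and 2.50 in EIF4A1 KO cells, a log2 change of 1.49 ± 0.35. In both, the EIF4A1 KO libraries lay above all 4 others, though lack of overlap with naive was a condition for naming them. ENST00000366574.7 had 3.21 and 4.52 CPM in naive, 0.964 and 1.32 in EIF4A1 KO and 1.82 and 2.37 in EIF4A2 KO cells. Its log2 change was -1.78 ± 0.33 in EIF4A1 KO (edgeR adjusted p = 1.2e-05) and -0.89 ± 0.23 in EIF4A2 KO (edgeR adjusted p = 0.0052), and the latter call was lost without naive replicate 2 (-0.61, edgeR adjusted p = 0.30) or EIF4A2 KO replicate 1 (-0.72, edgeR adjusted p = 0.094). ENST00000271588.9 had 2.04 and 1.67 CPM in naive and 0.121 and 0.526 in EIF4A1 KO cells, a log2 change of -2.52 ± 0.53, on the side of its RNA change.

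In EIF4A2 KO cells fewer members passed the test, though the difference between the knockouts was not tested. Of 194 members, 23 were called higher and 2 lower, against 3.87% and 4.87% of all transcripts. Shorter transcripts with the same RNA count limit had 4.3% and 5.6%. At a length of 2000 to 3000 these shares were 12.6% and 2.24%, near the 11.9% and 1.03% of members. The median log2 change of the members was 0.12. By locus, 13 of 98 were higher and 1 was lower. This count depends on single libraries: 11 members were higher without naive DMSO replicate 1, 16 without replicate 2 and 16 without EIF4A2 KO replicate 1. ENST00000568225.2 (length 5054) had 26.6 and 38.8 CPM in naive, 68.9 and 61.7 in EIF4A2 KO and 19.7 and 19.2 in EIF4A1 KO cells, and its log2 change in EIF4A2 KO was 0.99 ± 0.086 (SE; edgeR adjusted p = 5.8e-16). Its own naive libraries lay further apart than this SE conveys. ENST00000341594.9 (length 8383) had 6.49 and 6.67 CPM in naive, 11.04 and 10.1 in EIF4A2 KO and 4.22 and 3.55 in EIF4A1 KO cells. For both transcripts the 3 genotypes did not overlap, with EIF4A2 KO above naive and EIF4A1 KO below it. Lack of overlap between EIF4A2 KO and naive was a condition for naming them. Both knockouts were compared with the same 2 naive libraries.

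Translation efficiency here means footprints relative to RNA, and its change with EIF4A1 loss was fitted over 4 RNA-seq and 4 DMSO profiling libraries. It draws on the naive RNA libraries and is given as a description. In this fit 41 of 213 members were called higher in EIF4A1 KO and 4 lower, with 4.56% and 6.74% of all 63924 transcripts. Shorter transcripts with the same RNA count limit had 6.2% and 9.2%. At a length of 2000 to 3000 these shares were 22.15% and 8.11%, with a median log2 change of 0.17, beside 19.25% and 1.88% of members. The median log2 change was 0.11 over members and -0.029 over all transcripts. By locus 27 of 105 were higher and 3 lower. Without EIF4A1 KO profiling replicate 1 the counts were 15 higher and 2 lower, and without naive profiling replicate 2 they were 21 and 6.

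Single members show what stands behind these counts. For ENST00000360064.7 (length 4940), a sister transcript of ENST00000366574.7, RNA was 31.1 and 30.7 CPM in naive and 4.05 and 3.62 in EIF4A1 KO cells, while footprints were 3.21 and 4.46 against 0.964 and 1.32. Footprints were thus lower by a smaller factor than RNA, and the efficiency change was 1.24 ± 0.42 (SE; edgeR adjusted p = 0.039), a call lost without either EIF4A1 KO profiling library, naive profiling replicate 1 or EIF4A1 KO RNA replicate 2 (edgeR adjusted p between 0.062 and 0.36). ENST00000380361.7 (length 3044) had 15.8 and 14.6 CPM of RNA in naive and 18.5 and 18.3 in EIF4A1 KO cells, with 27.9 and 30.0 against 27.1 and 24.1 CPM of footprints, and its change was -0.45 ± 0.12 (edgeR adjusted p = 0.0045). That call was lost without EIF4A1 KO profiling replicate 2 (-0.37, edgeR adjusted p = 0.080). ENST00000268489.10 (length 3694) had 6.31 and 5.92 CPM of RNA against 6.22 and 5.70, and 6.92 and 7.37 CPM of footprints against 3.74 and 4.73, a change of -0.72 ± 0.22. It was not called without EIF4A1 KO profiling replicate 1 (-0.56, edgeR adjusted p = 0.26) or RNA replicate 1 (-0.64, edgeR adjusted p = 0.075). The call of ENST00000368799.1 rests on 1 library, since it had 0 footprints in 3 of the 4 profiling libraries and 16 in EIF4A1 KO replicate 2 (edgeR adjusted p = 1 without it).

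With PP242, a share of the longest transcripts had more footprints relative to other transcripts in naive and in EIF4A2 KO cells. The 2 PP242 libraries of a genotype formed 1 group against its 2 DMSO libraries, in a fit of the 12 profiling libraries where 198 members passed the filter. In naive cells 32 members were called higher and 1 lower, against 4.83% and 6.71% of all 54938 transcripts. For EIF4A2 KO cells the counts were 75 higher and 1 lower, against 5.65% and 8.53%. The median log2 changes were 0.13 and 0.29, against 0.015 and 0.022 over all transcripts. By locus, 20 of 100 were higher in naive cells and 36 of 100 in EIF4A2 KO cells, with 1 lower in each. Of shorter transcripts with the same RNA count limit, 5.8% were higher in naive cells and 6.7% in EIF4A2 KO cells. At a length of 2000 to 3000 these shares were 20.4% and 35.8%.

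The doses can be set side by side with 1 library each. Against the DMSO mean, the median over the 100 loci in naive cells was 0.16 at 1 µM and 0.13 at 10 µM, with 75 and 68 loci above 0. In EIF4A2 KO cells it was 0.31 and 0.23, with 90 and 86 loci above 0. The counts of members called higher depend on single libraries: in naive cells 18 without DMSO replicate 1, 17 without DMSO replicate 2 and 10 without the 1 µM library, and in EIF4A2 KO cells 33, 34 and 35 in turn. With a slope over a dose score of 0, 1 and 2 in place of the PP242 group, 5 members were called higher and none lower in each of these genotypes (30 and 58 higher, and 1 and 1 lower, at an unadjusted p under 0.05).

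Named members show the levels. ENST00000368654.8 (length 3247) had 80.2 and 77.4 CPM of footprints on DMSO in EIF4A2 KO cells, 133.2 at 1 µM and 113.1 at 10 µM, a log2 change of 0.64 ± 0.073 (SE; edgeR adjusted p = 2.1e-10). In naive cells it had 62.1 and 69.4 CPM on DMSO, 102.2 at 1 µM and 93.0 at 10 µM. The EIF4A1 KO libraries had 106.2 and 102.9 CPM on DMSO and 107.1 and 108.6 with PP242. PP242 libraries of naive and EIF4A2 KO cells thus lay above their DMSO libraries by more than the replicates differed. Those of EIF4A1 KO cells lay within a few CPM of DMSO. Lack of overlap in EIF4A2 KO cells was a condition for naming this transcript.

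ENST00000615648.1 (length 5079) had 28.1 and 40.8 CPM on DMSO in naive cells and 53.2 and 61.7 at 1 and 10 µM, a log2 change of 0.72 ± 0.10 (edgeR adjusted p = 1.1e-07). Its own naive DMSO libraries lay further apart than this SE conveys. The EIF4A2 KO libraries had 73.0 and 65.1 CPM on DMSO and 93.5 and 88.9 with PP242. ENST00000333891.14 (length 5133) had 4.42 and 4.86 CPM on DMSO in EIF4A2 KO cells and 7.66 and 6.48 at 1 and 10 µM, a log2 change of 0.60 ± 0.17 (edgeR adjusted p = 0.011). Its call was lost without DMSO replicate 1 (0.53, edgeR adjusted p = 0.11) or the 1 µM library (0.48, edgeR adjusted p = 0.17). ENST00000392971.6 (length 5198) rose by 1.82 ± 0.55 in naive cells on few counts, 3 and 9 footprints on DMSO against 21 and 6 with PP242, and was not called without the 1 µM library (0.99, edgeR adjusted p = 0.64) or DMSO replicate 1 (1.34, edgeR adjusted p = 0.19).

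The transcript that went the other way was the same in naive and EIF4A2 KO cells, ENST00000252999.7 (length 3686). In naive cells it had 13.0 and 15.6 CPM on DMSO and 9.04 and 10.9 at 1 and 10 µM, a log2 change of -0.55 ± 0.14 (SE; edgeR adjusted p = 0.0055). Its level in EIF4A2 KO cells was 20.02 and 17.1 CPM on DMSO and 11.5 and 14.4 with PP242, a log2 change of -0.51 ± 0.12 (edgeR adjusted p = 0.0019). The EIF4A1 KO libraries had 8.18 and 7.52 CPM on DMSO and 9.21 and 7.72 with PP242. The naive call was lost without DMSO replicate 2 (-0.41, edgeR adjusted p = 0.18) or the 1 µM library (-0.40, edgeR adjusted p = 0.26), and the EIF4A2 KO call without DMSO replicate 1 (-0.40, edgeR adjusted p = 0.088) or the 1 µM library (-0.37, edgeR adjusted p = 0.12).

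In EIF4A1 KO cells few members passed the test. Of 198, 3 were called higher and 10 lower with PP242, against 2.66% and 4.14% of all transcripts, so that both were near the background. The median log2 change was -0.080. By locus, 1 of 100 was higher and 4 were lower. Against the DMSO mean, the median over loci was -0.058 at 1 µM and -0.030 at 10 µM, beside 0.036 and -0.037 for the 2 DMSO replicates themselves. With the dose score, 0 members were called by edgeR (6 higher and 9 lower at an unadjusted p under 0.05). Leaving out single libraries gave 0 higher and 1 lower (DMSO replicate 1, where the members' median was 0.021), 0 and 3 (DMSO replicate 2), 3 and 2 (10 µM) and 0 and 7 (1 µM).

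Of the called members in EIF4A1 KO cells, ENST00000375735.7 (length 4298) had 46.9 and 45.4 CPM on DMSO and 37.3 and 34.3 at 1 and 10 µM, a log2 change of -0.38 ± 0.090 (SE; edgeR adjusted p = 0.0035). ENST00000643348.1 (length 3086) had 31.8 and 31.1 CPM on DMSO and 24.97 and 24.1 with PP242, a log2 change of -0.36 ± 0.10. ENST00000615648.1 was higher, with 20.8 and 20.3 CPM on DMSO and 31.4 and 25.9 with PP242 (0.46 ± 0.13). ENST00000380361.7 had 28.8 and 25.5 CPM on DMSO and 36.1 and 32.8 with PP242 (0.34 ± 0.10). Each of these 4 calls was lost when EIF4A1 KO DMSO replicate 1 was left out, at edgeR adjusted p of 0.099, 0.18, 0.16 and 0.077 in that order. All but that of ENST00000375735.7 were also lost without DMSO replicate 2 (edgeR adjusted p of 0.082, 0.15 and 0.33). The calls of the 2 lower transcripts were lost without the 10 µM library as well (0.086 and 0.12), and those of the 2 higher ones without the 1 µM library (0.21 and 0.21).

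**Figure D3:**
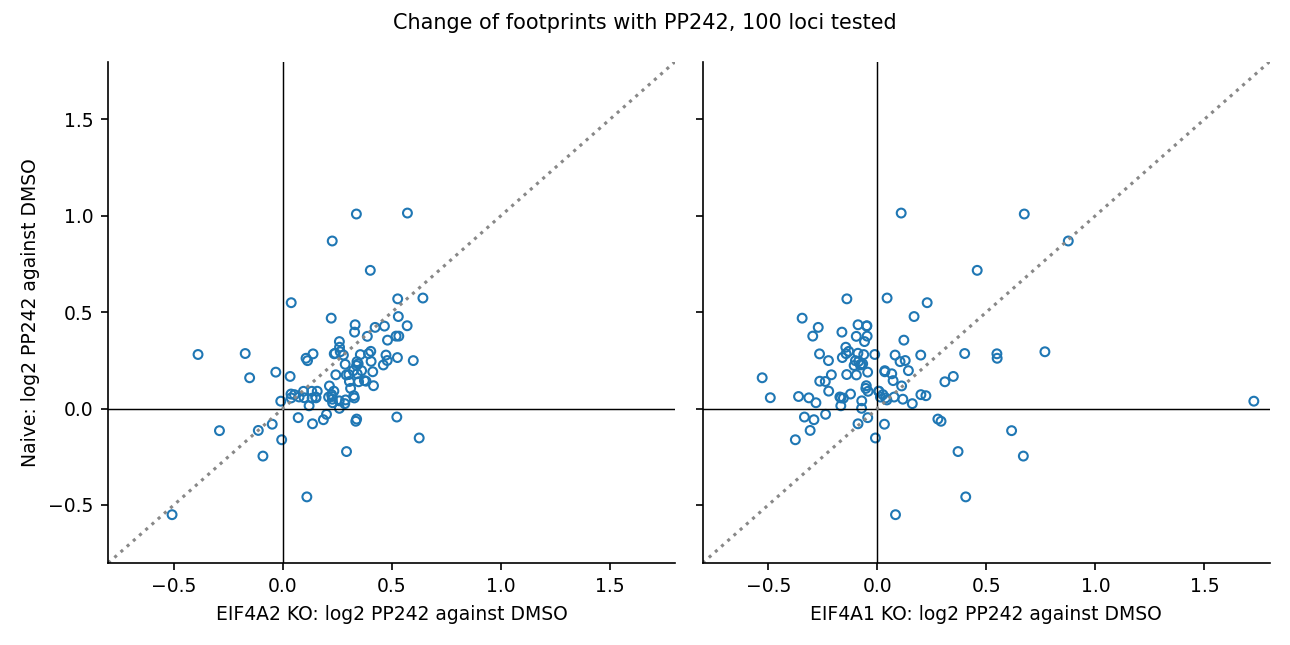
Log2 change of footprints with PP242 in naive cells (y axis) against that in EIF4A2 KO cells (left) and EIF4A1 KO cells (right), with 1 circle per locus of the longest transcripts (100 loci, leading transcript) and a dotted line of equality. Naive and EIF4A2 KO cells were both above 0 in 79 loci, whereas 48 loci were above 0 in naive cells and below 0 in EIF4A1 KO cells.

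The difference between the responses was tested in the same fit. Relative to naive cells, the PP242 response in EIF4A1 KO cells was called lower for 14 of 198 members and higher for 0, against 2.71% lower and 4% higher of all transcripts, with a member median of -0.23. At an unadjusted p under 0.05 the edgeR counts were 37 lower and 3 higher, and DESeq2 called 11 lower and 0 higher. Relative to EIF4A2 KO cells it was called lower for 45 members and higher for 0, against 2.63% and 4.21%, with a median of -0.33. There the counts at an unadjusted p under 0.05 were 88 lower and 5 higher, and DESeq2 called 23 lower and 0 higher. Among transcripts of 2000 to 3000 in length with the same RNA count limit, 14.8% were lower against naive cells, above the 7.07% of members. Against EIF4A2 KO cells 22.6% of them were lower, near the 22.7% of members. The lower calls were thus not confined to the longest transcripts. By locus, 11 of 100 were lower against naive and 23 of 100 against EIF4A2 KO cells.

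These calls depend on how the dose enters and on single libraries. With the dose score, 0 members were called in either comparison by edgeR (20 and 47 lower, 2 and 1 higher at an unadjusted p under 0.05), with 0% and 0.00182% of all transcripts called. Against naive cells, 5 members were lower without EIF4A1 KO DMSO replicate 1, 6 without the EIF4A1 KO 1 µM library and 8 without the naive 1 µM library. Against EIF4A2 KO cells, the counts were 15 and 25 without these 2 EIF4A1 KO libraries (with 1 higher in the second case), 18 and 29 without EIF4A2 KO DMSO replicates 1 and 2, and 20 without the EIF4A2 KO 1 µM library. The comparison shares the EIF4A1 KO DMSO libraries with the genotype comparison, where the members' median was already 0.22 above naive.

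ENST00000369393.8 (length 5587) shows the levels behind the difference. In naive cells it had 44.6 and 47.3 CPM on DMSO and 66.4 and 70.4 at 1 and 10 µM. The EIF4A2 KO libraries had 46.0 and 43.3 CPM and then 62.7 and 65.8, and the EIF4A1 KO libraries had 79.2 and 63.5 CPM and then 65.1 and 64.8. All PP242 libraries thus lay between 62.7 and 70.4 CPM, while the DMSO level was higher in EIF4A1 KO than in the other two genotypes. The difference of responses against naive cells was -0.71 ± 0.12 (SE; edgeR adjusted p = 1.6e-05).

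ENST00000283195.11 (length 3215) also had a higher DMSO level in EIF4A1 KO than in the other genotypes, but its PP242 levels were less alike. It had 88.2 and 89.6 CPM on DMSO and 120.9 and 117.0 with PP242 in naive cells. It had 101.6 and 95.7 against 133.6 and 130.8 in EIF4A2 KO cells, and 135.1 and 132.4 against 101.1 and 119.6 in EIF4A1 KO cells. PP242 libraries thus lay below DMSO in EIF4A1 KO cells and above it in the other genotypes. Its response in EIF4A1 KO minus that in EIF4A2 KO cells was -0.69 ± 0.10 (edgeR adjusted p = 9.0e-07). ENST00000544455.5 (length 3409) had 13.0 and 13.5 CPM on DMSO and 18.4 and 18.3 with PP242 in naive cells, and 23.9 and 17.0 against 15.03 and 17.0 in EIF4A1 KO cells. Its difference of -0.81 ± 0.18 was not called without EIF4A1 KO DMSO replicate 1 (-0.54, edgeR adjusted p = 0.17). ENST00000423517.6 (length 4926), at 4.42 to 7.66 CPM in EIF4A2 KO cells, had a difference of -0.82 ± 0.26 from the EIF4A2 KO response (edgeR adjusted p = 0.045), lost in 7 of the 8 fits that left out a library of these genotypes.

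Pulldown of SBP-eIF4A1 gave much less RNA of the longest transcripts than its input. Of 206 members tested, 187 were called lower in the pulldown and 3 higher, against 31.8% lower and 32.1% higher of all 65768 transcripts. The median log2 enrichment was -1.35, with quartiles of -1.73 and -0.95, against 0.0075 over all transcripts. By locus 93 of 103 were lower and 2 higher. Of shorter transcripts with the same RNA count limit, 41.1% were lower and 34.5% higher. At a length of 2000 to 3000, 83.8% were lower. Relative to the input mean, the median over loci was -1.44 in pulldown replicate 1 and -1.38 in replicate 2, with 5 of 103 loci above 0 in each. No pulldown from cells without a tagged protein was used here, so RNA held by the beads is part of each enrichment.

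With SBP-eIF4A2 the depletion was smaller. Of 206 members, 157 were called lower and 27 higher, against 34.5% and 33.6% of all transcripts, and the median was -0.71. By locus 75 of 103 were lower and 17 higher, with medians of -0.82 and -0.89 in the 2 pulldown replicates. Of shorter transcripts with the same RNA count limit, 44.8% were lower and 33.1% higher. The difference, SBP-eIF4A1 minus SBP-eIF4A2, was called lower for 135 members and higher for 2, against 7.46% and 12.6% of all transcripts. Its median was -0.60 over the members and 0.024 over all transcripts, and by locus 72 of 103 were lower and 1 higher. Of shorter transcripts with the same RNA count limit, 9.6% were lower and 18.1% higher. At a length of 2000 to 3000, 57.7% were lower. Each protein was pulled down from its own cells, so the protein cannot be told apart from other differences between the 2 sets of libraries. Over the 103 loci, the 2 enrichments had a Spearman correlation of 0.88, given as a description over transcripts of shared libraries.

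The most depleted member was ENST00000409404.6 (length 4548). It had 49.0 and 48.6 CPM in the SBP-eIF4A1 inputs and 5.44 and 6.43 in the pulldowns, and 45.9 and 47.8 against 9.68 and 8.80 for SBP-eIF4A2. Its log2 enrichment with SBP-eIF4A1 was -3.04 ± 0.084 (SE; edgeR adjusted p = 6.2e-14). ENST00000280481.9 (length 3160) had 22.5 and 22.4 CPM in the SBP-eIF4A1 inputs and 2.84 and 3.12 in the pulldowns, a log2 enrichment of -2.91 ± 0.097. For SBP-eIF4A2 the lowest were ENST00000544455.5, at 23.2 and 22.4 CPM in inputs and 2.87 and 3.65 in pulldowns (-2.80 ± 0.12), and ENST00000358100.6 (length 3117), at 35.7 and 33.4 against 5.94 and 4.04 (-2.80 ± 0.12). Inputs and pulldowns did not overlap for any of these transcripts, again a condition for naming them.

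A few members went against this trend. ENST00000262304.8, the transcript with many RNA counts and few footprints, had 54.5 and 49.4 CPM in the SBP-eIF4A1 inputs and 82.3 and 86.0 in the pulldowns, a log2 enrichment of 0.70 ± 0.061 (SE; edgeR adjusted p = 3.1e-08). ENST00000423118.5 (length 4293), its near-identical sister, had 70 and 71.4 CPM in the SBP-eIF4A2 inputs and 207.6 and 196.4 in the pulldowns, a log2 enrichment of 1.52 ± 0.058 (edgeR adjusted p = 1.2e-12). ENST00000164024.5 (length 3303) had 3.30 and 3.73 CPM against 5.00 and 5.15 with SBP-eIF4A1 (0.53 ± 0.14) and 5.55 and 5.94 against 15.4 and 12.7 with SBP-eIF4A2 (1.29 ± 0.11). For each, pulldowns lay above inputs with both proteins, and lack of overlap was a condition in the comparisons that named them.

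The enrichments of these 2 sets of libraries differed most for ENST00000397910.8 (length 14498), the longest member outside the locus of ENST00000589042.5. It had 5.04 and 5.70 CPM in the SBP-eIF4A1 inputs and 0.769 and 1.23 in the pulldowns. With SBP-eIF4A2 it had 5.36 and 4.80 against 6.08 and 4.65, so that input and pulldown overlapped. The difference of enrichments was -2.49 ± 0.26 (SE; edgeR adjusted p = 6.1e-06). ENST00000378024.9 (length 5881) had 46.3 and 39.2 CPM against 18.02 and 19.5 with SBP-eIF4A1 and 26.8 and 24.1 against 30.3 and 26.7 with SBP-eIF4A2, a difference of -1.35 ± 0.12. ENST00000445597.6 (length 3498) was depleted more with SBP-eIF4A2, from 23.9 and 22.7 CPM to 8.84 and 7.20, than with SBP-eIF4A1, from 23.8 and 25.6 to 11.6 and 11.9. Its difference was 0.47 ± 0.13 (edgeR adjusted p = 0.016), lost without SBP-eIF4A1 input replicate 1 (0.42, edgeR adjusted p = 0.094), SBP-eIF4A1 pulldown replicate 2 (0.46, edgeR adjusted p = 0.075) or SBP-eIF4A2 input replicate 1 (0.44, edgeR adjusted p = 0.081).

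After control siRNA the SBP-eIF4A1 pulldown had more RNA than its input for most of the longest transcripts. Of 213 members, 148 were called higher and 15 lower, against 29.1% and 28% of all 65793 transcripts. The median log2 enrichment was 0.79, with quartiles of 0.38 and 1.51, against 0.064 over all transcripts. By locus 69 of 105 were higher and 9 lower. Of shorter transcripts with the same RNA count limit, 27.8% were higher and 37.3% lower. At a length of 2000 to 3000, 65.4% were higher. Relative to the input mean, the loci had a median of 0.66 in replicate 1 and 0.97 in replicate 2, with 78 and 90 of 105 above 0. Of the 103 loci measured in both experiments, 79 were below 0 without siRNA and above 0 after siControl, 19 were below 0 in both, 5 were above 0 in both and 0 went the other way. The experiments were fitted apart, so this difference was not tested, and the siRNA cannot be told apart from other differences between the experiments.

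ENST00000397910.8 had the largest rise after siControl, from 6.30 and 6.77 CPM in inputs to 54.8 and 92.6 in pulldowns, a log2 enrichment of 3.50 ± 0.23 (SE; edgeR adjusted p = 1.3e-15). In the siLARP1 libraries it had 5.996 and 6.50 CPM in inputs and 98.8 in the pulldown. ENST00000262304.8 had 65.3 and 42.0 CPM in siControl inputs and 411.1 and 306.5 in pulldowns. ENST00000409404.6, the most depleted without siRNA, was also depleted here, from 37.8 and 40.6 CPM to 10.6 and 10.8 (-1.88 ± 0.19, edgeR adjusted p = 1.5e-10). ENST00000544455.5 likewise went from 35.1 and 37.8 to 14.2 and 21.3 CPM (-1.04 ± 0.20). ENST00000368799.1 was called higher at 3.48 on 2 and 1 input counts against 12 and 35 in pulldowns, and not without pulldown replicate 2 (edgeR adjusted p = 0.065).

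**Figure D4:**
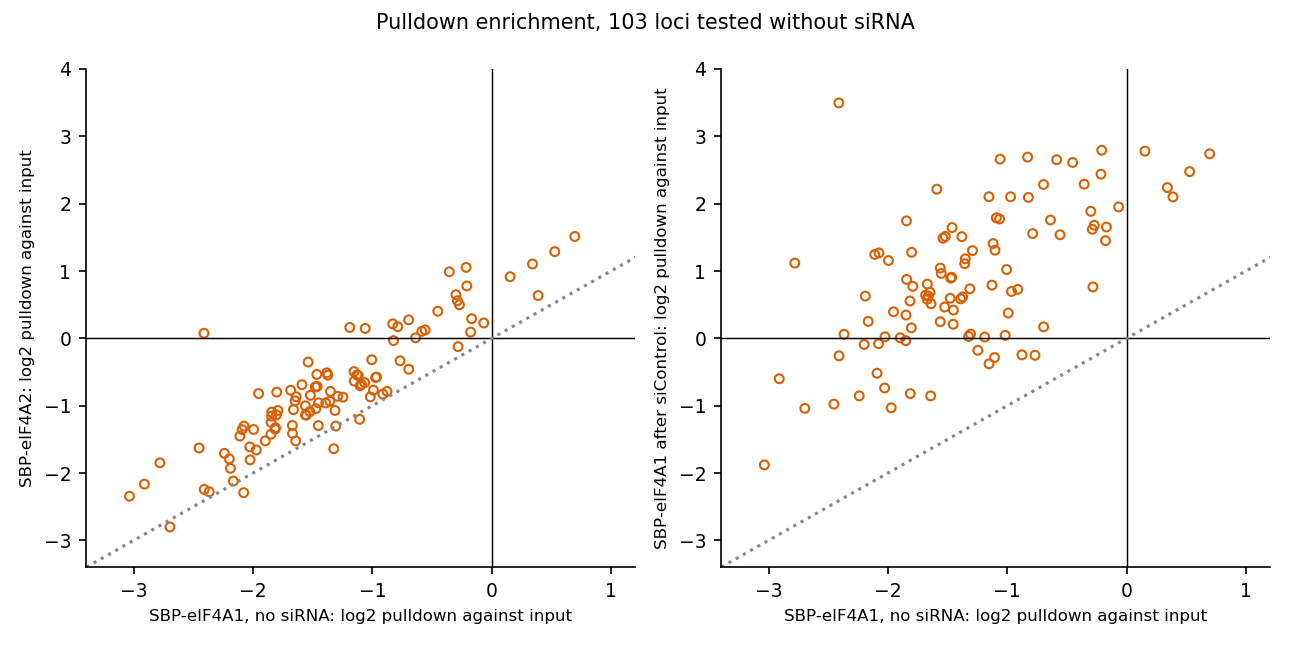
Log2 pulldown over input for SBP-eIF4A2 (left, y axis) and for SBP-eIF4A1 after control siRNA (right, y axis) against SBP-eIF4A1 without siRNA (x axis), with 1 circle per locus of the longest transcripts (103 loci, leading transcript) and a dotted line of equality. On the right, 79 loci lie below 0 on the x axis and above 0 on the y axis; on the left, 79 loci lie below 0 on both axes.

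LARP1 siRNA was described without a test in the pulldown, which had 1 library. Against its inputs, the median over 105 loci was 0.77, with 83 loci above 0, beside 0.79 and 86 loci for siControl computed in the same way. Per locus, siLARP1 minus siControl had a median of -0.076, against -0.044 for shorter transcripts with the same RNA count limit. The 2 siLARP1 inputs differed from each other: relative to the siControl inputs the members' median was 0.23 in replicate 1 and -0.12 in replicate 2. In the input comparison 7 of 213 members were called higher with siLARP1 and 0 lower by edgeR, against 0.491% and 0.448% of all transcripts. At a length of 2000 to 3000 and the same RNA count limit, 1.97% were higher and 0% lower. The median log2 change was 0.14 in that class and 0.12 over the members. At an unadjusted p under 0.05 the members' counts were 32 higher and 0 lower, and DESeq2 called 5 higher and 0 lower. Leaving out siControl input replicate 1 or 2 gave 11 or 2 higher, and leaving out siLARP1 input replicate 2 gave 1.

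Of these, ENST00000622827.4 (length 3345) had 2.12 and 1.59 CPM in siControl inputs and 4.02 and 4.83 in siLARP1 inputs, a log2 change of 1.24 ± 0.25 (SE; edgeR adjusted p = 0.012). Its call was lost without siControl input replicate 2 (1.06, edgeR adjusted p = 0.33) or siLARP1 input replicate 2 (1.098, edgeR adjusted p = 0.14). ENST00000284548.16 (length 6611) had 1.51 and 1.00 CPM against 2.01 and 3.94, a log2 change of 1.21 ± 0.31 (edgeR adjusted p = 0.046). It was not called without siControl input replicate 2 or either siLARP1 input (edgeR adjusted p between 0.056 and 0.53), or with DESeq2's size factors (edgeR adjusted p = 0.059).

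Pulldown enrichment was also set out by class of footprints per RNA in naive cells. The classes rest on naive RNA-seq and naive DMSO footprints, which the pulldown libraries do not share. With SBP-eIF4A1, the median log2 enrichment was -0.28 over the 12 tested loci with under 5 footprints per 100 RNA counts, -1.47 over 53 loci with 5 to 20 and -1.49 over 38 loci with 20 or more, and 7, 49 and 37 loci of these classes were called lower. With SBP-eIF4A2 the medians were 0.64, -0.96 and -0.85, and 9 of the 12 loci of the lowest class were called higher, against 7 of 53 and 1 of 38. After siControl the medians were 1.99, 0.64 and 0.85, and 13 of 14, 33 of 53 and 23 of 38 loci were called higher. Over all transcripts tested, 31.8% were called lower with SBP-eIF4A1, 33.6% higher with SBP-eIF4A2 and 29.1% higher after siControl. The 14 include the 2 loci with few input counts described above, which were not tested without siRNA. In ENST00000254579.10 (length 4744), with 2 footprints on 510 RNA counts in naive cells, the log2 enrichments were -0.21, 1.054 and 2.44 in these comparisons. The difference between the classes was not tested, and this transcript was chosen after its values were seen.

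Each of these shifts was part of a gradient with length. Among transcripts that met the same RNA count limit, the median SBP-eIF4A1 enrichment was 0.25, 0.095, -0.22, -0.70 and -0.999 in the 5 classes below a length of 3000 and -1.35 at 3000 or more. For SBP-eIF4A2 it went from -0.019 in the shortest class to -0.54 at 2000 to 3000 and -0.71 at 3000 or more. After siControl it went from -0.72 to 0.75 and 0.79. The longest transcripts were thus at the end of the range in these 3 comparisons, and in each the median at 2000 to 3000 lay within their quartiles.

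**Figure D5:**
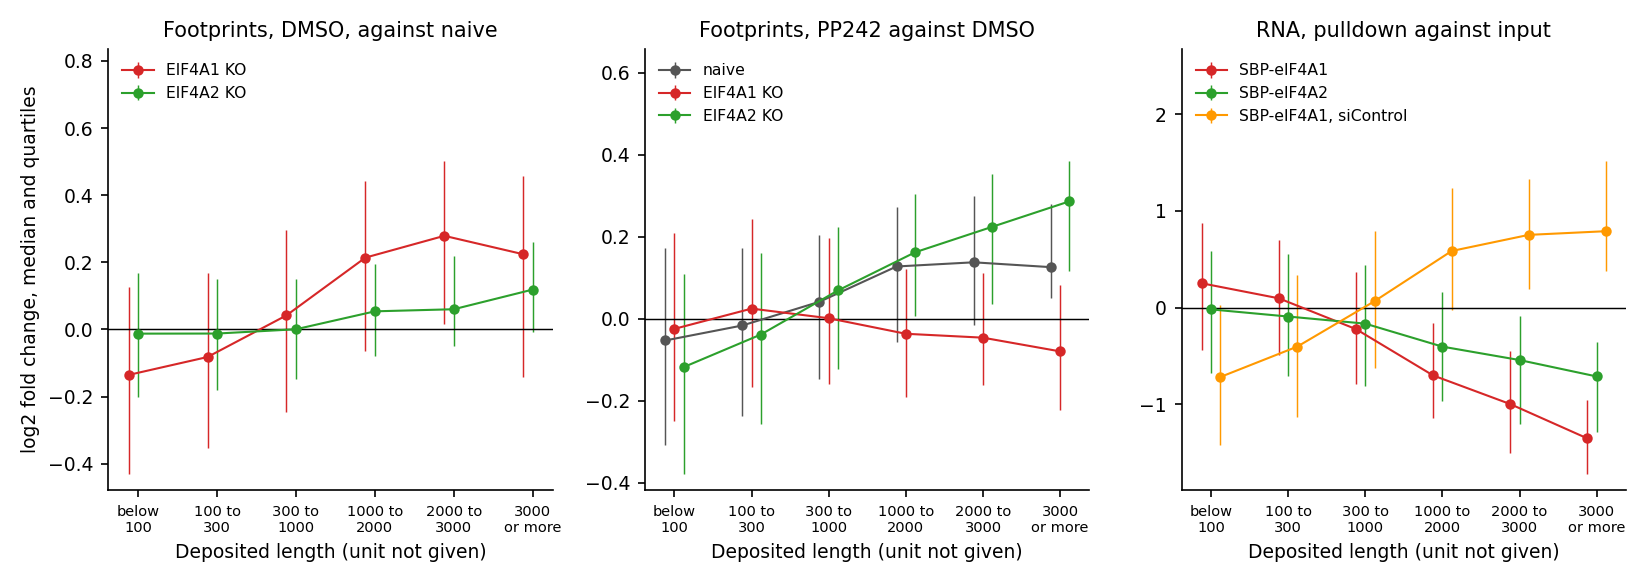
Median log2 fold change (y axis; bars span the quartiles) by class of deposited length (x axis) for footprints in knockouts against naive cells on DMSO (left), footprints with PP242 against DMSO (middle) and RNA in pulldown against input (right), over transcripts with at least 100 counts in both naive RNA-seq libraries. The class at 3000 or more holds 194 to 213 transcripts, and its median is the lowest or highest of the 6 classes in 6 of the 8 lines.

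The PP242 response had the same kind of gradient in 2 genotypes. In EIF4A2 KO cells the medians were -0.12, -0.039, 0.069, 0.16, 0.22 and 0.29 from the shortest to the longest class. In naive cells they rose from -0.053 to 0.13 at 1000 to 2000 and stayed near it, at 0.14 and 0.13, in the classes above. In EIF4A1 KO cells they lay between -0.080 and 0.024 in all classes. In the DMSO comparison the EIF4A1 KO medians rose from -0.14 to 0.28 at 2000 to 3000 and were 0.22 in the longest class. Among the longest loci themselves, the Spearman correlation of length with the log2 change lay between -0.20 and 0.18 in 13 of the 14 comparisons, and was -0.44 for the difference between SBP-eIF4A1 and SBP-eIF4A2 over 103 loci. For that difference the median was -0.43 over 53 loci with a length of 3000 to 4000, -0.62 over 34 with 4000 to 5000 and -0.84 over 16 above that.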

How the data were processed

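The deposited files hold raw counts per Ensembl transcript with a length column, which the authors made from reads; per the submitters' processing notes CASAVA 1.8, STAR 2.7.0a and the hg38 build were used, and the counting program is not given in the sources used here. A stranded mRNA kit was used for RNA-seq and pulldowns, per the labels' protocols. Lengths run from -9 to 35982 with no unit, and 126981 of 227264 transcripts have no length and no count. Transcripts with equal counts in all libraries were collapsed to the first, leaving 77343. No table used here pairs these IDs with genes, so gene names, gene lists, positions and sequences are not reported, and the length, RNA count and locus rules stand in their place.

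Counts were normalised by TMM and filtered with filterByExpr (minimum count 10, minimum total 15). They were tested two-sided with edgeR 4.0.16 (R 4.3.3) by the quasi-likelihood test, with Benjamini-Hochberg adjustment over all transcripts tested. The profiling libraries on DMSO, all 12 profiling libraries, the 8 pulldown libraries without siRNA, the 7 with siRNA and the RNA-seq libraries were fitted apart. Per-library medians use log2(CPM + 0.1). Members named by ID are the longest transcript and, per comparison, at most 2 called with the largest rise and 2 with the largest fall, 1 per locus, where in comparisons of 2 groups (not in differences of responses or translation efficiency) their libraries also do not overlap; a few others are said to be chosen by their values. The fit was tested on simulated data. DESeq2 1.42.0, other limits, the replicate number as a block and leaving out each library were alternatives. The members, lists and tests were chosen with earlier results of these data known.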

Additional observations from a re-analysis of the deposited data

Results flagged for a closer look

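Responses that differed between groups are listed with their values. The PP242 response of footprints was called lower in EIF4A1 KO than in naive cells for 14 of 198 members, against 2.71% of all transcripts. It was called lower than in EIF4A2 KO cells for 45 of 198, against 2.63%. Both counts come from the edgeR test of the difference itself. No member kept a call with a dose score in place of the PP242 group. Enrichment with SBP-eIF4A1 differed from that with SBP-eIF4A2 for 137 of 206 members, 135 of them lower. Over all transcripts, 7.46% were called lower and 12.6% higher. The protein cannot be told apart from other differences between these sets of libraries. At a length of 2000 to 3000 and the same RNA count limit, these comparisons had 14.8%, 22.6% and 57.7% called lower. The share of counts on the 213 transcripts was 2.43 times that of the input in the SBP-eIF4A1 pulldown after siControl and 0.328 times that of the input without siRNA, a difference that was not tested.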

How the results depend on the processing

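The percent of tested members called was within 1.5 times its value, and on the same side, in 179 of 224 alternatives of percents, ratios and medians, and 369 of 435 values of named transcripts kept their call, with 66 losing it and 0 changing sign. For the PP242 responses, a dose score gave 2.53% called in naive cells (main 16.7%), 0% in EIF4A1 KO (6.57%), 2.53% in EIF4A2 KO (38.4%), and 0% for EIF4A1 KO against naive (7.07%) and against EIF4A2 KO (22.7%). DESeq2 gave 3.896% for footprints in EIF4A2 KO (12.9%), 3.19% for PP242 in EIF4A1 KO and 23.9% in EIF4A2 KO, each over the 154, 157 and 155 members to which DESeq2 gave an adjusted p, with 6, 5 and 37 called. A naive RNA count limit of 1000 gave 32.2% for translation efficiency (21.1%), 10.4% for PP242 in EIF4A1 KO and 12.2% for EIF4A1 KO against naive, where a length limit of 2000 gave 13.8% and the leading transcript of each locus, chosen after seeing the data, 11%. For siLARP1 input RNA (3.29%), no filter on low counts gave 6.10% and a length limit of 4000 gave 1.98%. With 1 transcript per locus the share ratios were 0.343 for SBP-eIF4A1 (0.328), 2.278 for siLARP1 (2.276) and 1.11 for RNA (1.096). The balance of higher and lower calls turned for RNA without naive replicate 2 (60.6% called) and for PP242 in EIF4A1 KO without the 10 µM library (2.53%). The cause of these changes was not tested.

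Leaving out single libraries gave 56.3% to 66.7% for RNA (65.7%), 31.3% to 43.9% for footprints in EIF4A1 KO (46.9%), 6.63% to 9.55% in EIF4A2 KO and 7.98% to 25.4% for translation efficiency. For PP242 it gave 4.90% to 12.3% in naive, 0.490% to 3.47% in EIF4A1 KO and 16.7% to 35.9% in EIF4A2 KO cells, 2.45% to 8.59% against naive and 7.35% to 25.1% against EIF4A2 KO. For pulldowns it gave 89.9% to 94.2% with SBP-eIF4A1 (92.2%), 83.1% to 90.3% with SBP-eIF4A2 (89.3%), 53.1% to 81.2% for their difference (66.5%) and 61.0% to 76.5% after siControl (76.5%). The siLARP1 input range was 0.470% to 5.16%, and footprints per RNA ranged from -1.19 to -1.15 (log2, -1.17). Where a group was left with 1 library, that library was assumed to vary like the others.

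With the replicate number as a block (replicate block), 63.9% were called for RNA, 46.9% and 12.9% for footprints, 20.7% for translation efficiency, 92.7%, 86.9% and 65.5% for the pulldowns without siRNA and their difference, 79.2% after siControl and 2.42% for siLARP1 input (both without the siLARP1 pulldown). It moved no count by over 1.5 times. Same-numbered libraries had correlated deviations only between siControl input and pulldown (0.479). The other 12 correlations lay between -0.147 and 0.050, and there the numbers were not taken to pair the libraries. The main siControl test was also unpaired despite its correlation, and the 79.2% above is its value with the block. No paired analysis was possible for PP242 because its libraries carry no replicate number. At the depth of the profiling libraries, 194 of 213 members could be tested on DMSO and 198 with PP242.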

Other observations

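Among the 44178 transcripts with at least 100 counts in both naive RNA-seq libraries, 32 had under 20 counts in every one of the 8 input libraries of the pulldown experiments. Of these, 28 also had at least 100 counts in both EIF4A1 KO RNA-seq libraries, and 7 were among the 213 longest transcripts. The spread between replicates differed among the experiments: over transcripts, chi-square per degree of freedom between the 2 libraries of a group was 14.4 for siLARP1 input, 12.6 for the siControl pulldown, 6.76 for siControl input and 6.63 for the SBP-eIF4A2 pulldown, and 1.26 to 2.24 for the other groups.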
